A study of Homo sapiens with 18 samples.

Results

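RRM1, RRM2, TYMS, DUT, DTYMK, TK1 and DCK encode the enzymes that make deoxynucleotides, the building blocks of DNA. They are the 7 genes described here, chosen by name, with earlier results of these data known. The array's annotation gives them 18 of the 41091 probe sets that were matched to 1 gene, and they are 7 of the 19775 genes so measured. Expression was read on 18 Affymetrix arrays of total RNA from 2 human prostate cancer cell lines, in 6 groups of 3 arrays. LNCaP responds to androgen, and LNCaP-abl is an LNCaP subline adapted to grow in androgen-depleted medium. The groups were LNCaP-abl with TRIM24 siRNA and LNCaP-abl with control siRNA, both with vehicle; LNCaP with TRIM24 siRNA and LNCaP with control siRNA, both with 10 nM dihydrotestosterone (DHT, an androgen); and LNCaP with TRIM24 siRNA and LNCaP with control siRNA, both with vehicle. TRIM24 is a chromatin-binding cofactor of nuclear receptors. The siRNA was present for 48 h and DHT or the ethanol vehicle for 24 h, and the growth conditions stated for LNCaP include 48 h in hormone-stripped serum in every group. The knockdowns are thus transient, all LNCaP-abl arrays are from vehicle-treated cells, and the labels describe neither the siRNA sequences nor separate cultures behind the 3 arrays of a group, so the p-values rest on the spread from array to array within a group, which may be only technical.

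Ribonucleotide reductase converts ribonucleotides to deoxyribonucleotides; RRM1 is its large catalytic subunit and RRM2 its small radical-bearing subunit, which cells make mainly in S phase. TYMS methylates dUMP to dTMP, DUT hydrolyses dUTP to the dUMP that TYMS uses and keeps uracil out of DNA, and DTYMK phosphorylates dTMP on its way to dTTP. TK1 and DCK are the salvage kinases, which phosphorylate thymidine and deoxycytidine taken up from outside the cell. Several of these genes are known targets of the E2F and B-MYB/FOXM1 programmes that switch on cell cycle genes. Promoters of cell cycle genes can hold E2F sites, CCAAT boxes and the cell cycle homology region (CHR).

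The promoters of 5 of the 7 genes are printed, those at either end of the range of response: RRM2, TYMS and TK1 had the largest falls after TRIM24 knockdown in LNCaP-abl, and DUT and DTYMK the smallest. Each is the 250 bases before the start of transcription in RefSeq (build GRCh38.p14), 5′ to 3′ on the gene's own strand. Where RefSeq gives several starts (2 for RRM2, 2 for TK1 and 4 for DUT) the one farthest downstream was taken, a choice made after motif counts had been seen. Capitals mark matches, on either strand, to the E2F motif TTTNNCGC, the CCAAT box CCAAT, and the CHR forms TTTGAA and TTTAAA.
RRM2, chr2:10122489-10122738, plus strand: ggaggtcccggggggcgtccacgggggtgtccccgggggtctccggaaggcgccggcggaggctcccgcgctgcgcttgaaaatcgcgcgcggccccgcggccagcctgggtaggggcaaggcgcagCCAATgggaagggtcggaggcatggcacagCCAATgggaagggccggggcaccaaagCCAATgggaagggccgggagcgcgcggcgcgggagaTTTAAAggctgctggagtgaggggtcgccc
TYMS, chr18:657403-657652, plus strand: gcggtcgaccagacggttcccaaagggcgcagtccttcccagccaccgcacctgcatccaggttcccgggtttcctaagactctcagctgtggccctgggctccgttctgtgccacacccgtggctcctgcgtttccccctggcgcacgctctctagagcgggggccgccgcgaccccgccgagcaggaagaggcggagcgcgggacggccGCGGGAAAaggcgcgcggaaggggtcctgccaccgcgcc
TK1, chr17:78187053-78187302, minus strand: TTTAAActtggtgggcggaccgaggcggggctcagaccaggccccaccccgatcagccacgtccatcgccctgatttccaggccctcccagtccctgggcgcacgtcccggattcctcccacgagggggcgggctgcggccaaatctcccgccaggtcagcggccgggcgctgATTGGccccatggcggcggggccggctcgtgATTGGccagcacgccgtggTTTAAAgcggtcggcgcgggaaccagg
DUT, chr15:48331947-48332196, plus strand: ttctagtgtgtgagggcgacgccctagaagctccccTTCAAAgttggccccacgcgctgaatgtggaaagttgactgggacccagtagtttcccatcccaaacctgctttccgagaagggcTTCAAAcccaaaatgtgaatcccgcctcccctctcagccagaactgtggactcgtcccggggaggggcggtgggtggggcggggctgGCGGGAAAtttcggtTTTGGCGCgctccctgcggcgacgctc
DTYMK, chr2:241686816-241687065, minus strand: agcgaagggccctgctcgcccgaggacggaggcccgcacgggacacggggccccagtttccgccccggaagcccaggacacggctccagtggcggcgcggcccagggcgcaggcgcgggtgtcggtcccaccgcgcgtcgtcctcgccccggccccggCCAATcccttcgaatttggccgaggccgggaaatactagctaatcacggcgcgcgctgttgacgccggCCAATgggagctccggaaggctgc

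RRM2 carried 3 CCAAT matches and a TTTAAA whose first base lay 30 bases before the start. TK1 carried 2 CCAAT matches, both on the reverse strand, and 2 TTTAAA matches, the nearer with its first base 27 bases before the start. DTYMK had 2 CCAAT matches and no CHR match, and RRM1, not printed, had 1 CCAAT and 1 TTTGAA match. RRM1 lies at chr11:4094685-4138932 and DCK, whose promoter is not printed either, at chr4:70993649-71030914. The E2F motif was found once in TYMS and at 2 places in DUT, which also held 2 TTTGAA matches. DCK held none of these strings. The windows of the starts not printed held fewer matches: none of these strings in any of the other 3 of DUT, 1 TTTAAA and no CCAAT in the other of TK1, and 1 CCAAT and no TTTAAA in the other of RRM2. With the start farthest downstream taken for every gene, CCAAT was present in 32.7% of the 27305 RefSeq genes with such a window, TTTGAA in 13.9%, TTTAAA in 11.5% and TTTNNCGC in 5.78%; because the start was chosen with the counts known, no tally of the members is set against these shares. Such matches describe the letters of the sequence and not a bound site, and the arrays measured no binding.

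The siRNA target itself checked the labels. TRIM24 read 7.45, 7.55 and 7.35 on the log2 scale in LNCaP-abl with TRIM24 siRNA, against 9.44, 9.60 and 9.55 with control siRNA, and fell by 2.08 (adjusted p = 2.72e-13, limma with Benjamini-Hochberg adjustment). It fell by 2.14 in LNCaP with DHT and by 1.99 in LNCaP with vehicle. KRT8, KRT18 and HOXB13, luminal prostate epithelial genes, were above the detection filter of 5.88 (the median of the table) on all 18 arrays, KLK3 on 14 and KLK2 on 6. Of 10 markers of basal, fibroblast, leukocyte and endothelial cells measured, KRT14, COL1A2, PTPRC and CDH5 were below that filter on every array, while COL1A1, PECAM1 and VWF were above it on every array, DCN on 13 arrays, CD3E on 9 and KRT5 on 1. The other markers listed were not analysed here. Arrays of a group correlated at 0.996 to 0.998, and the array medians lay between 5.83 and 5.93. The 3′ to 5′ log2 difference of the GAPDH control probe sets, a measure of RNA integrity and labelling, averaged 0.59 to 0.64 in the 3 TRIM24 siRNA groups, against 0.52 to 0.56 in the 3 control siRNA groups.

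Values below are log2 expression of a gene's brightest probe set, on which a difference of 1 is a doubling; levels of different genes are not compared, because probe sets differ in sensitivity. All 7 genes passed the filter on low values, and the same probe set served in every group. The 6 groups are shown per array in the plot of member levels.

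**Figure D1:**
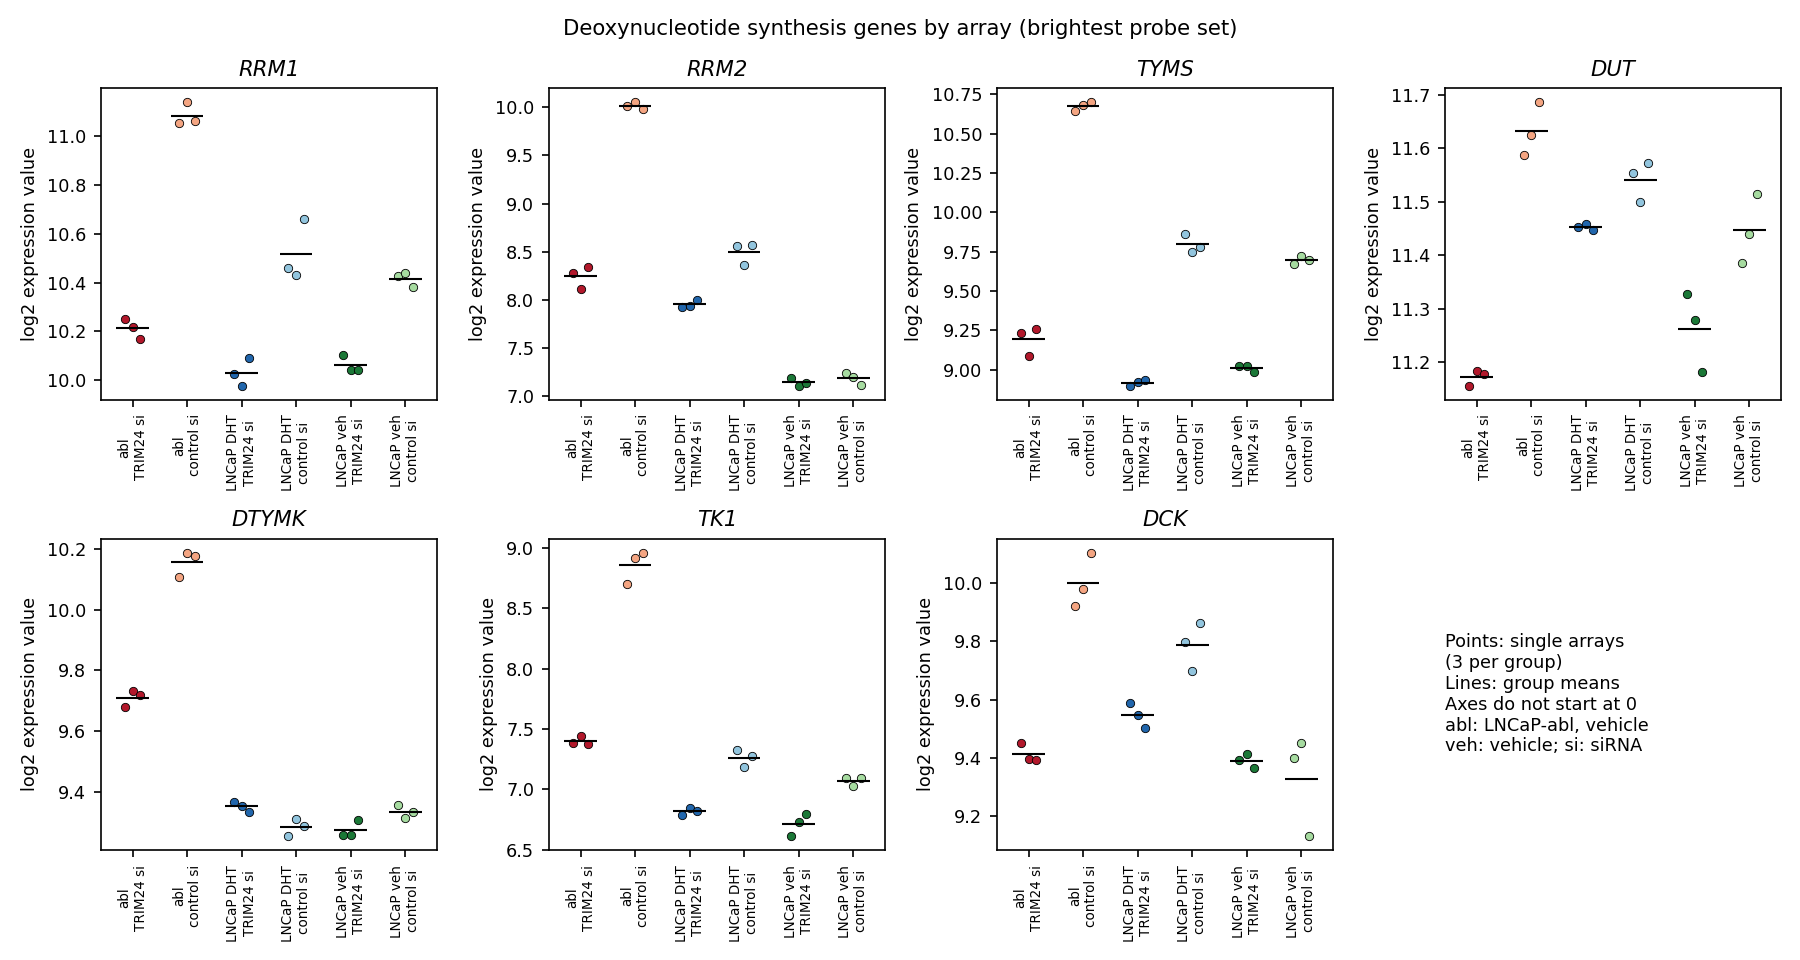
Log2 expression of the 7 deoxynucleotide synthesis genes on each of the 18 arrays (points) with group means (horizontal lines), one panel per gene, LNCaP-abl left of LNCaP and TRIM24 siRNA left of control siRNA within each pair. In all 7 panels the LNCaP-abl control siRNA group has the highest mean, and in all 7 the LNCaP-abl TRIM24 siRNA arrays lie below those of their control.

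The 2 subunits of ribonucleotide reductase differed in how far they moved. RRM2 read 8.28, 8.11 and 8.34 in LNCaP-abl with TRIM24 siRNA, against 10.01, 10.05 and 9.98 with control siRNA. In LNCaP with DHT it read 7.93, 7.93 and 8.00 with TRIM24 siRNA and 8.56, 8.36 and 8.57 with control siRNA. In LNCaP with vehicle the values were 7.19, 7.11 and 7.13 with TRIM24 siRNA and 7.25, 7.20 and 7.12 with control siRNA. The groups were thus separate in LNCaP-abl and in LNCaP with DHT and overlapped in LNCaP with vehicle, where both were at the bottom of the range. The large subunit RRM1 moved less. It read 10.25, 10.22 and 10.17 in LNCaP-abl with TRIM24 siRNA and 11.05, 11.14 and 11.06 with control siRNA. In LNCaP with DHT it read 10.03, 9.98 and 10.09 with TRIM24 siRNA and 10.46, 10.43 and 10.66 with control siRNA, and in LNCaP with vehicle 10.10, 10.04 and 10.04 with TRIM24 siRNA and 10.43, 10.44 and 10.38 with control siRNA. Every RRM1 array with TRIM24 siRNA, of either line, was below every control siRNA array.

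Among the thymidylate genes, TYMS separated the groups most widely. It read 9.23, 9.09 and 9.26 in LNCaP-abl with TRIM24 siRNA, against 10.64, 10.68 and 10.70 with control siRNA. In LNCaP with DHT its values were 8.90, 8.92 and 8.93 with TRIM24 siRNA and 9.86, 9.75 and 9.78 with control siRNA. In LNCaP with vehicle they were 9.02, 9.03 and 8.98 with TRIM24 siRNA and 9.67, 9.72 and 9.70 with control siRNA. All 9 TRIM24 siRNA arrays were below all 9 control arrays, and no neighbouring pair of the 6 groups overlapped. On the brightest probe sets DUT was the flattest of the 7, with 11.16, 11.18 and 11.18 in LNCaP-abl with TRIM24 siRNA and 11.59, 11.62 and 11.69 with control siRNA. Its LNCaP values with DHT were 11.45, 11.46 and 11.45 with TRIM24 siRNA and 11.55, 11.50 and 11.57 with control siRNA, and with vehicle 11.33, 11.28 and 11.18 with TRIM24 siRNA and 11.39, 11.44 and 11.51 with control siRNA. The knockdown group was the lower one in each pair, with no overlap. DUT was less flat on another probe set, 208955_at. Its group means there ran from 6.39 in LNCaP-abl with TRIM24 siRNA to 7.23 in LNCaP-abl with control siRNA. The vehicle groups of LNCaP overlapped on 208955_at. DTYMK read 9.68, 9.73 and 9.72 in LNCaP-abl with TRIM24 siRNA and 10.11, 10.19 and 10.18 with control siRNA. In LNCaP it stayed between 9.25 and 9.37 on all 12 arrays: with DHT the TRIM24 siRNA arrays (9.37, 9.35 and 9.33) were just above the control arrays (9.25, 9.31 and 9.29), and with vehicle the TRIM24 siRNA arrays (9.26, 9.26 and 9.31) were just below the control arrays (9.36, 9.31 and 9.33), the nearest pair differing by less than 0.01.

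Of the salvage kinases, TK1 read 7.38, 7.44 and 7.38 in LNCaP-abl with TRIM24 siRNA, against 8.70, 8.92 and 8.96 with control siRNA. In LNCaP with DHT it read 6.79, 6.85 and 6.82 with TRIM24 siRNA and 7.32, 7.18 and 7.27 with control siRNA, and in LNCaP with vehicle 6.61, 6.73 and 6.80 with TRIM24 siRNA and 7.10, 7.02 and 7.09 with control siRNA. TK1 was lower with TRIM24 siRNA in all 3 pairs, without overlap, and its knocked-down LNCaP-abl arrays were still above every LNCaP array. On its other probe set, 202338_at, the knocked-down LNCaP-abl arrays (7.22 to 7.28) overlapped with those of LNCaP control with DHT (7.06 to 7.24). DCK read 9.45, 9.40 and 9.39 in LNCaP-abl with TRIM24 siRNA and 9.92, 9.98 and 10.11 with control siRNA. In LNCaP with DHT its values were 9.59, 9.55 and 9.50 with TRIM24 siRNA and 9.80, 9.70 and 9.86 with control siRNA, and with vehicle 9.39, 9.41 and 9.37 with TRIM24 siRNA and 9.40, 9.45 and 9.13 with control siRNA. The vehicle groups of DCK overlapped, with or without control replicate 3, which at 9.13 was the lowest of the 18 arrays.

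TRIM24 knockdown in LNCaP-abl lowered all 7 genes. RRM2 was left at 29.3% of its control level, TYMS at 35.8% and TK1 at 36.3%, while RRM1 kept 54.8%, DCK 66.4%, DUT 72.7% and DTYMK 73.3%. On the log2 scale RRM2 fell by 1.77 ± 0.06 (standard error of the limma fit, n = 3 against 3; Benjamini-Hochberg adjusted p = 3.65e-12), TYMS by 1.48 ± 0.04 (6.49e-13) and TK1 by 1.46 ± 0.06 (3.63e-11). RRM1 fell by 0.87 ± 0.05 (2.15e-09), DCK by 0.59 ± 0.07 (4.07e-06), DUT by 0.46 ± 0.04 (2.66e-07) and DTYMK by 0.45 ± 0.03 (1.34e-08). Among the 13607 genes tested, ordered from the largest fall, RRM2 was number 36, TYMS 62, TK1 68, RRM1 233, DCK 523, DUT 827 and DTYMK 868. A fall was called (adjusted p under 0.05) for 28.8% of all genes, and 32.2% had lower arrays that did not overlap with the control, as all 7 members did. In LNCaP 6 members were lower without overlap and 1 higher with DHT (25.1% and 24.7% of all genes), and 5 were lower with vehicle (23.5%). The split of all calls depended on scaling, with 2276 higher and 3925 lower as deposited, 1607 and 4527 after centring each array, and 3019 and 3131 after quantile normalization; all 7 members were called lower under each. The arrays read RNA from whole cultures, so fewer cells expressing a gene and less RNA per cell cannot be told apart.

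In LNCaP, TRIM24 siRNA lowered 5 of the 7 genes with DHT and 4 with vehicle, where falls were called for 20.8% and 18% of all genes. Among the members TYMS fell most in both, by 0.88 ± 0.04 with DHT (limma, adjusted p = 1.95e-10) and 0.69 ± 0.04 with vehicle (3.19e-09), to 54.4% and 62.2% of control. RRM1 fell by 0.48 ± 0.05 with DHT (1.77e-06) and by 0.35 ± 0.05 with vehicle (5.28e-05), and TK1 by 0.44 ± 0.06 (2.71e-05) and 0.36 ± 0.06 (0.000236). RRM2 fell by 0.54 ± 0.06 with DHT (2.71e-06), and differed by -0.04 ± 0.06 with vehicle (0.634; 95% interval -0.17 to 0.09). DUT fell with vehicle, by 0.18 ± 0.04 (0.00238), and had -0.09 ± 0.04 with DHT (0.109). DCK fell with DHT, by 0.24 ± 0.07 (0.0108), and had 0.06 ± 0.07 with vehicle (0.519). DTYMK passed in neither, at 0.07 ± 0.03 with DHT (0.108) and -0.06 ± 0.03 with vehicle (0.161). The DCK call with DHT was lost without LNCaP control DHT replicate 3 (-0.20, 0.0529) and when the fit held the 3′ to 5′ signal as a term (-0.20, 0.361). With that term all 7 falls in LNCaP-abl and the other 8 in LNCaP were still called.

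**Figure D2:**
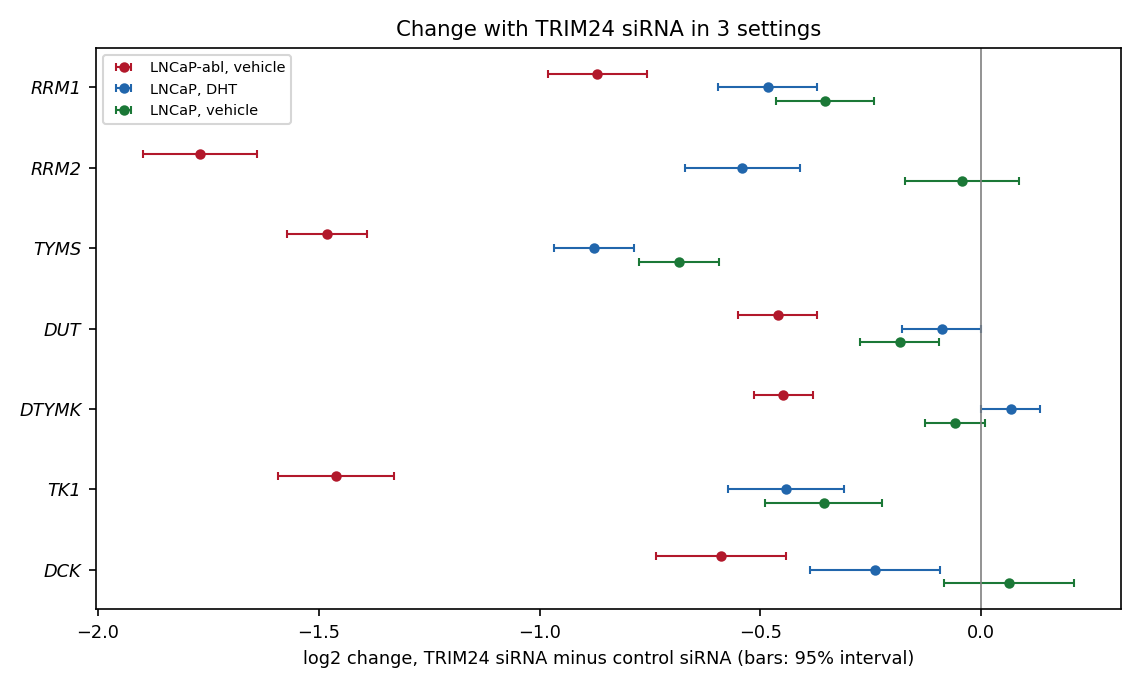
Log2 change of each gene, TRIM24 siRNA minus control siRNA, in LNCaP-abl, LNCaP with DHT and LNCaP with vehicle, with 95% intervals of the limma fit (n = 3 against 3). In LNCaP-abl all 7 intervals lie below 0 and reach from the -1.77 of RRM2 to the -0.45 of DTYMK.

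The change of every member with TRIM24 siRNA was more negative in LNCaP-abl than in LNCaP with vehicle, by the interaction term of the fit. The difference of the log2 changes was -1.73 ± 0.09 for RRM2 (limma, adjusted p = 4.88e-09), -1.10 ± 0.09 for TK1 (3.81e-07), -0.80 ± 0.06 for TYMS (2.33e-07), -0.65 ± 0.10 for DCK (0.000182), -0.52 ± 0.07 for RRM1 (0.000126), -0.39 ± 0.04 for DTYMK (1.52e-05) and -0.28 ± 0.06 for DUT (0.00288). All 7 were called, where 19.9% of all genes had a negative call. Over all genes the calls were 1168 positive and 2712 negative, 757 and 3404 after centring and 1644 and 1827 after quantile normalization. DTYMK lost its call when its 5 probe sets, of which 3 reached the filter, were averaged (-0.09, adjusted p = 0.322). The knockdown of TRIM24 itself did not pass this test, at -0.09 (adjusted p = 0.425). The interaction of knockdown with DHT in LNCaP was called, on the brightest probe sets, for RRM2, at -0.50 ± 0.09 (0.0017), where 5.70% of all genes had a negative call. TYMS had -0.19 ± 0.06 (0.0518) in that test, and on its second probe set, 1554696_s_at, -0.32 ± 0.08, which was called (limma over all probe sets, 0.0222). DCK had -0.30 ± 0.10 (0.0575), and 0 to 4 members were called across the other settings.

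The second RRM2 probe set, 209773_s_at, gave a different picture of LNCaP with vehicle from that of the brightest, 201890_at. It read 6.97, 6.92 and 6.84 with TRIM24 siRNA, against 7.55, 7.43 and 7.45 with control siRNA, without overlap. Its change there was -0.56 ± 0.06 (limma over all probe sets, adjusted p = 3.59e-06). With DHT it read 7.49, 7.41 and 7.40 with TRIM24 siRNA and 8.38, 8.12 and 8.27 with control siRNA, a change of -0.83 ± 0.06 (4.76e-08). In LNCaP-abl it read 8.06, 7.91 and 8.00 with TRIM24 siRNA and 9.94, 10.07 and 10.04 with control siRNA, a change of -2.03 ± 0.06 (2.51e-12). On this probe set RRM2 therefore fell in all 3 pairs, and the interaction with DHT was -0.26 ± 0.09 and not called (0.0927), while that with cell line was -1.47 ± 0.09 (4.96e-08). The brightest probe set minus the second averaged 0.25 ± 0.07 in LNCaP-abl with TRIM24 siRNA and 0.00 ± 0.06 with control siRNA (SD, n = 3 each). This difference was 0.52 ± 0.08 and 0.24 ± 0.06 in LNCaP with DHT, and 0.23 ± 0.05 and -0.29 ± 0.05 in LNCaP with vehicle, again with TRIM24 siRNA given first. It was higher with TRIM24 siRNA in each pair, as was the 3′ to 5′ signal, whose part in it was not tested.

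**Figure D3:**
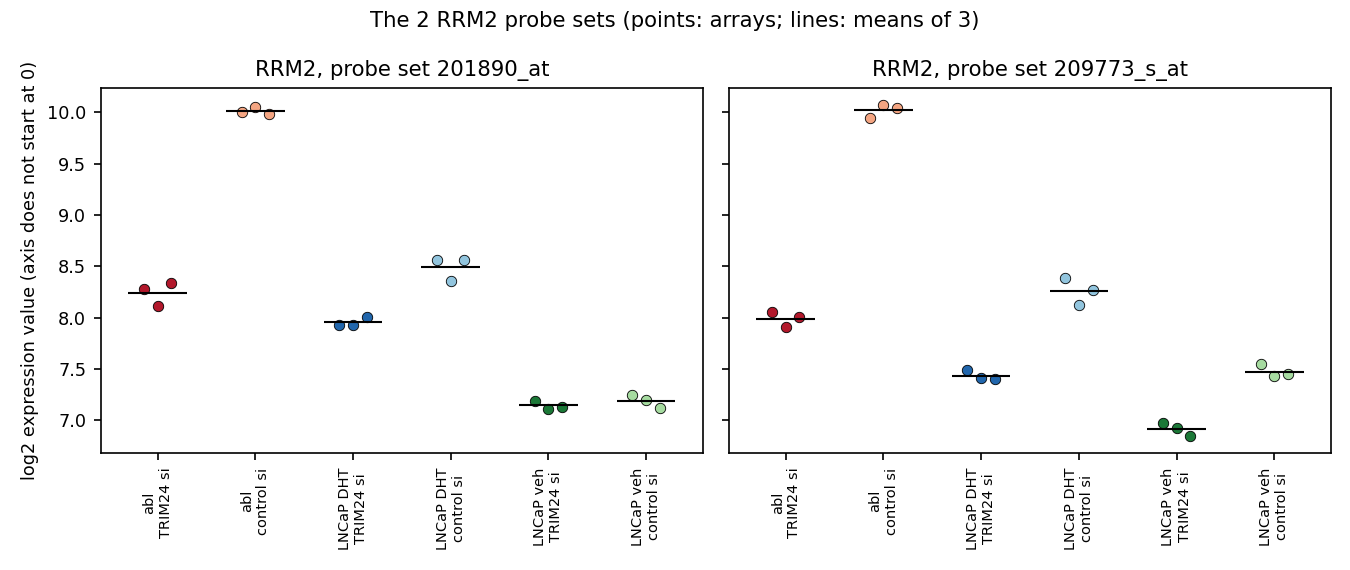
Log2 values of the 2 RRM2 probe sets on each array by group, TRIM24 siRNA left of control siRNA. In LNCaP with vehicle the 201890_at values of both groups overlap, all within 7.11 to 7.25, and those of 209773_s_at do not, with 6.84 to 6.97 for TRIM24 siRNA and 7.43 to 7.55 for control siRNA.

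Over all 18 probe sets of the 7 genes, 15 passed the filter, and 14 of these were called lower after knockdown in LNCaP-abl (24.9% of the 29811 probe sets tested). The exception was 1553983_at of DTYMK, at -0.01 ± 0.11 (limma, adjusted p = 0.965). With DHT 10 of 15 were called lower (18.1% of all), and with vehicle 9 (15.6%). DUT had an unequal set: 208955_at fell by 0.84 ± 0.07 in LNCaP-abl (1.37e-07) and by 0.31 ± 0.07 in LNCaP with DHT (0.00292), but in LNCaP with vehicle it had -0.08 ± 0.07 (0.449). DUT was thus called in LNCaP with vehicle on its brightest probe set and in LNCaP with DHT on 208955_at. On 209932_s_at DUT was also lower in LNCaP with vehicle, without overlap, at a mean of 10.67 with TRIM24 siRNA against 10.81. The second TYMS probe set fell in all 3 pairs, as the brightest did, by 1.53 ± 0.06 in LNCaP-abl (1.03e-11), 0.91 ± 0.06 in LNCaP with DHT (3.96e-09) and 0.58 ± 0.06 with vehicle (5.78e-07). Averaging the probe sets of DTYMK left a change of -0.15 in LNCaP-abl.

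With control siRNA, every member was higher in LNCaP-abl than in LNCaP with vehicle, where 29.1% of all genes were called higher and 34.6% lower, and 30.6% had higher arrays that did not overlap. RRM2 was 7.09-fold higher (log2 difference 2.83 ± 0.06, limma, adjusted p = 8.87e-16) and TK1 3.46-fold (1.79 ± 0.06, 2.91e-13). TYMS was 1.97-fold higher (0.98 ± 0.04, 5.53e-12), DTYMK 1.77-fold (0.82 ± 0.03, 1.08e-12), DCK 1.60-fold (0.68 ± 0.07, 2.67e-07), RRM1 1.59-fold (0.67 ± 0.05, 1.04e-08) and DUT 1.14-fold (0.19 ± 0.04, 0.00101). DTYMK had 0.40 in place of 0.82 when its 5 probe sets, of which 3 reached the filter, were averaged. DUT had 0.39 in place of 0.19 on 208955_at. Against LNCaP with DHT, 6 of 7 were called higher in LNCaP-abl (33.2% of all genes), with RRM2 at 1.52 ± 0.06 (1.45e-12), TK1 at 1.60 ± 0.06 (8.64e-13) and DUT at 0.09 ± 0.04, which did not pass (0.0674) but was called on its other probe sets, 209932_s_at (0.21 ± 0.04, 8.96e-05) and 208955_at (0.23 ± 0.07, 0.00969). DCK, at 0.22 ± 0.07 (0.0116), lost that call without LNCaP control DHT replicate 2 (0.17, 0.0585) or LNCaP-abl control replicate 3 (0.16, 0.0652). The comparisons of LNCaP-abl with LNCaP and of knockdown in LNCaP-abl share the LNCaP-abl control arrays.

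With TRIM24 siRNA in both lines, 5 members were called higher in LNCaP-abl (29.6% of all genes). RRM2 was 2.14-fold higher (1.10 ± 0.06, limma, adjusted p = 1.22e-10), TK1 1.61-fold (0.69 ± 0.06, 5.21e-08) and DTYMK 1.35-fold (0.43 ± 0.03, 3.51e-09). TYMS had 0.18 ± 0.04 (0.00129) and RRM1 0.15 ± 0.05 (0.0178); DUT at -0.09 ± 0.04 (0.0692) and DCK at 0.02 ± 0.07 (0.786) did not pass. The TYMS difference turned to -0.10 ± 0.06 on its second probe set and was not called (0.138), and DUT was called lower on 208955_at, at -0.37 ± 0.07 (0.000231). The RRM1 call was lost with the mean of its probe sets (0.07, 0.115), on its most variable probe set (-0.02, 0.665), after centring each array (0.10, 0.158), and when LNCaP TRIM24 siRNA vehicle replicate 2 (adjusted p = 0.0527) or 3 (0.0528), or LNCaP-abl TRIM24 siRNA replicate 1 (0.0621), was left out. Knocked-down LNCaP-abl was also set against control LNCaP with vehicle. RRM2, at 1.06 ± 0.06 (1.89e-10), DTYMK, at 0.38 ± 0.03 (2.09e-08), and TK1, at 0.33 ± 0.06 (0.000182), were still higher, and TYMS, at -0.50 ± 0.04 (2.23e-08), DUT, at -0.27 ± 0.04 (2.48e-05), and RRM1, at -0.20 ± 0.05 (0.00281), were lower. In that comparison 29.1% of all genes were called higher and 39.9% lower. DCK had 0.09 ± 0.07 (0.282), and the RRM2 difference was 0.52 on its second probe set.

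**Figure D4:**
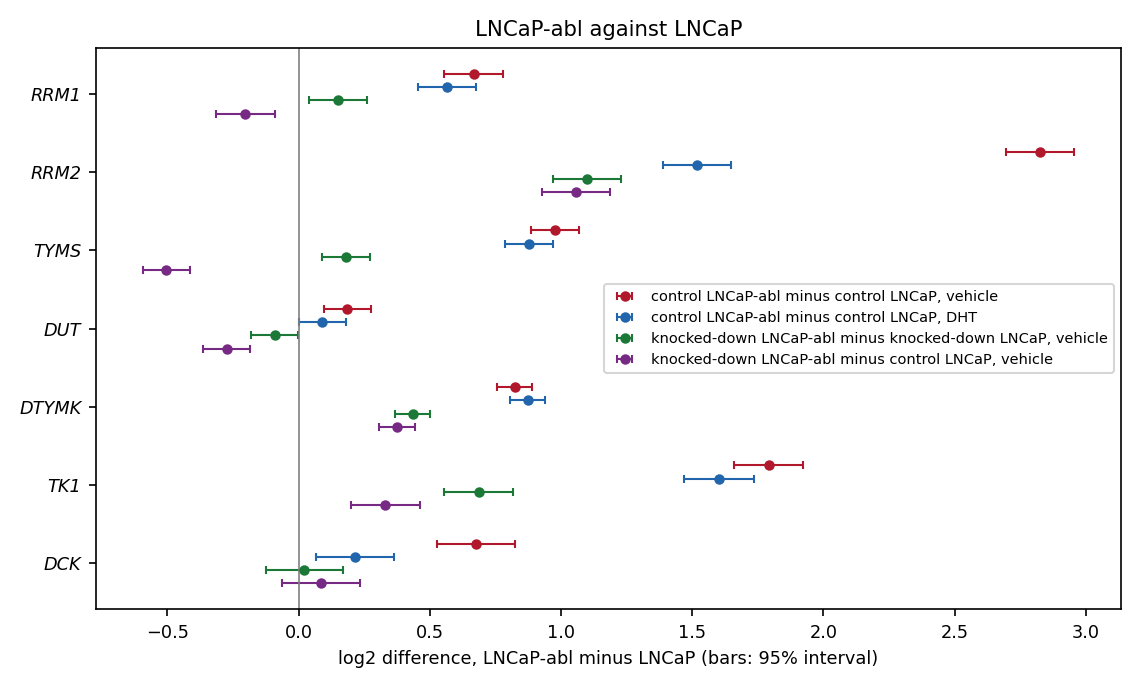
Log2 difference of each gene, LNCaP-abl minus LNCaP: control siRNA in both lines (LNCaP with vehicle or with DHT), TRIM24 siRNA in both lines, and TRIM24 siRNA in LNCaP-abl against control siRNA in LNCaP, with 95% intervals of the limma fit. With control siRNA and vehicle all 7 lie above 0, up to 2.83 for RRM2; with TRIM24 siRNA in LNCaP-abl alone RRM2, DTYMK and TK1 lie above 0 and TYMS, DUT and RRM1 below.

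DHT raised 3 of the 7 genes in LNCaP with control siRNA, where 19.4% of all genes were called higher. RRM2 was 2.48-fold higher with DHT than with vehicle (1.31 ± 0.06, limma, adjusted p = 3.89e-11), DCK 1.38-fold (0.46 ± 0.07, 4.27e-05) and TK1 1.14-fold (0.19 ± 0.06, 0.02). RRM1, TYMS and DUT each had 0.10 (0.134, 0.0676 and 0.0763 in that order), and DTYMK had -0.05 (0.217). TYMS was called on its second probe set, at 0.16 ± 0.06 (0.0305), and DUT on 209932_s_at, at 0.10 ± 0.04 (0.0384). The TK1 call was lost without LNCaP control vehicle replicate 2 (0.17, 0.0714), LNCaP control DHT replicate 1 (0.16, 0.0829) or replicate 3 (0.18, 0.055). On its second probe set RRM2 rose by 0.78 ± 0.06 (4.07e-08). Without LNCaP control DHT replicate 2, the number of members called was 5. With TRIM24 siRNA, 2 were called higher with DHT (16.9% of all genes): RRM2 by 0.81 ± 0.06 (1.5e-08) and DUT by 0.19 ± 0.04 (0.00148). The DUT value turned to -0.07 on 208955_at. TYMS was called lower on its second probe set, at -0.16 ± 0.06 (0.0314), and TK1 higher on 202338_at, at 0.15 ± 0.06 (0.0454).

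Ordered by group mean, LNCaP-abl with control siRNA was highest for all 7 genes, and the rest of the order differed between them. For RRM1 and TYMS the 3 control siRNA groups were above the 3 TRIM24 siRNA groups, and LNCaP with TRIM24 siRNA and DHT was lowest. For RRM2, on its brightest probe set, the order after LNCaP-abl control was LNCaP control with DHT, LNCaP-abl with TRIM24 siRNA, LNCaP with TRIM24 siRNA and DHT, and then both vehicle groups of LNCaP, which overlapped. On 209773_s_at the mean of LNCaP control with vehicle (7.48) was above that of LNCaP with TRIM24 siRNA and DHT (7.43). The vehicle groups did not overlap there. For TK1 and DTYMK both LNCaP-abl groups were above all LNCaP groups. DUT was the only one of the 7 with its lowest mean in LNCaP-abl with TRIM24 siRNA, overlapping there with LNCaP with TRIM24 siRNA and vehicle. Between neighbours in these orders, 0 of 5 pairs overlapped for TYMS, 1 of 5 for RRM2 and TK1, and 2 of 5 for RRM1, DUT, DTYMK and DCK. Across the 18 arrays, as a description over arrays that share 6 groups, the Pearson correlation of 2 members was highest for RRM1 and TYMS (0.982) and lowest for DUT and DTYMK (0.28). The genes most like a member over the 18 arrays were TYMS, CCNB2 and PCLAF for RRM1, ANLN, E2F8 and DTL for RRM2 (0.974 to 0.979), and PCLAF, HMGB3 and RRM1 for TYMS. They were PRC1, CENPE and CHEK1 for TK1 (0.988 to 0.992), VRK1, ZNF678 and CTPS2 for DUT (0.924 to 0.936), LOC105379499, GZF1 and PSRC1 for DTYMK (0.984 to 0.989), and ZNF367, OXR1 and CYCS for DCK (0.937 to 0.962).

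Cell cycle lists were counted beside the members. After knockdown in LNCaP-abl, 18 of 22 replication fork genes and 19 of 20 mitosis genes were called lower, with median log2 changes of -0.77 and -1.71, against -0.87 for the 7 members and -0.01 for all genes tested. In LNCaP with DHT the counts were 4 of 22 and 18 of 20, with medians of -0.05 and -0.59, against -0.44 for the members and 0.01 for all genes. In LNCaP with vehicle they were 2 of 22 and 17 of 20, with medians of 0.04 and -0.42, against -0.18 for the members and 0.00 for all genes; 6 of the 22 replication fork genes were called higher there. In LNCaP-abl against LNCaP with vehicle, 18 of 22 and 20 of 20 were called higher, with medians of 0.64 and 1.85, against 0.82 for the members and -0.02 for all genes. After knockdown, 28.8% of all genes were called lower in LNCaP-abl, 20.8% in LNCaP with DHT and 18% with vehicle. The replication fork shares called lower were 81.8%, 18.2% and 9.09% in the same order, and the mitosis shares 95%, 90% and 85%. With vehicle 20.5% of all genes were called higher, against 27.3% of the replication fork genes. In LNCaP-abl against LNCaP with vehicle, 29.1% of all genes were called higher. The part of cell cycle position or proliferation in the members' changes was not tested.

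**Figure D5:**
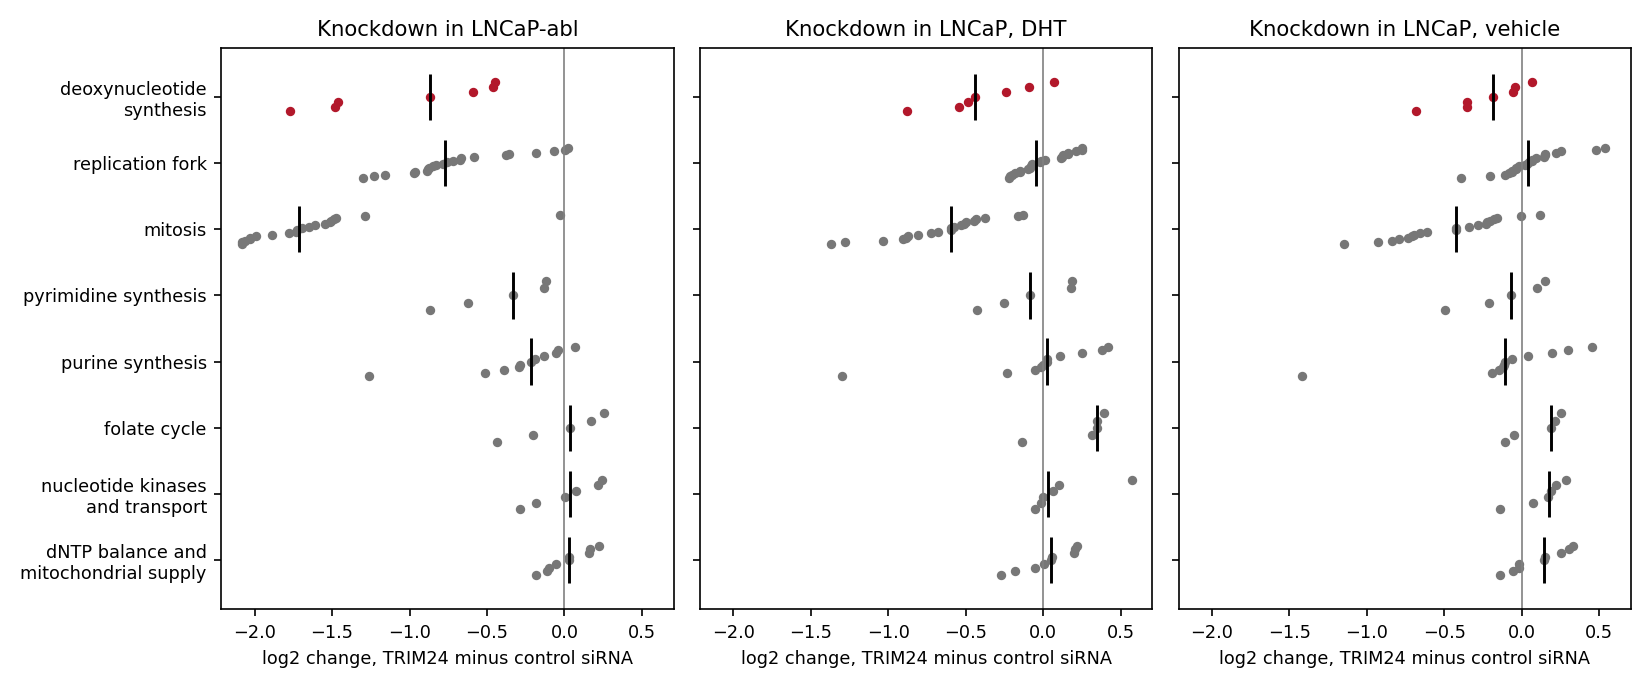
Log2 change with TRIM24 siRNA of each tested gene (points) of the deoxynucleotide synthesis members, the replication fork and mitosis lists and 5 lists of other nucleotide pathway genes, with list medians as vertical lines, in LNCaP-abl, LNCaP with DHT and LNCaP with vehicle. In LNCaP-abl the medians are -0.87 for the members, -0.77 for replication fork and -1.71 for mitosis, and the other pathway lists lie nearer 0.

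The other genes of nucleotide supply moved less together. Of 43 listed genes of deoxynucleotide balance, the folate cycle, nucleotide kinases and transport, and pyrimidine and purine synthesis, 36 were tested. CDA, SHMT1 and MTHFD1L were below the filter, and the rest were not analysed here. After knockdown in LNCaP-abl 7 of the 36 were called higher and 16 lower (median -0.12); in LNCaP with DHT 13 were higher and 7 lower (0.04), and with vehicle 15 higher and 9 lower (0.06). Of all genes 16.7%, 19.4% and 20.5% were called higher in these 3 comparisons, in the same order, and 28.8%, 20.8% and 18% lower. Of the 36 pathway genes 44.4%, 19.4% and 25% were called lower. ATIC, which carries out the last steps of purine synthesis, read 10.15, 10.11 and 10.10 in LNCaP-abl with TRIM24 siRNA, against 11.44, 11.36 and 11.34 with control siRNA. Its groups were separate in all 3 pairs, with falls of 1.26 ± 0.04 in LNCaP-abl (limma, adjusted p = 8.99e-13), 1.30 ± 0.04 in LNCaP with DHT (8.08e-13) and 1.42 ± 0.04 with vehicle (2.39e-13). CTPS1, a CTP synthase, fell by 0.87 ± 0.04, 0.43 ± 0.04 and 0.50 ± 0.04 in the same order (2.16e-11, 7.76e-08 and 1.35e-08). Its relative CTPS2 fell by 0.62 ± 0.04 in LNCaP-abl (1.05e-08), or by 0.15 as the mean of its probe sets. CTPS2 was also lower without overlap in LNCaP with DHT, at 8.00, 8.06 and 8.05 against 8.22, 8.27 and 8.38 with control siRNA. With vehicle it read 7.95, 7.95 and 7.91 against 8.19, 8.14 and 8.11. GART, a trifunctional purine enzyme, rose by 0.45 ± 0.04 in LNCaP with vehicle (6.13e-07), and PPAT, which catalyses the first committed step of purine synthesis, by 0.42 ± 0.03 with DHT (9.06e-08), or 0.22 as the mean of its probe sets. GART was also higher without overlap with DHT, at 9.26, 9.28 and 9.33 against 8.93, 8.91 and 8.91 with control siRNA. PPAT was so with vehicle, at 9.46, 9.51 and 9.47 against 9.24, 9.27 and 9.33. In LNCaP-abl the knockdown and control arrays of each gene overlapped.

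RRM2B, the p53-induced small subunit of ribonucleotide reductase, and SAMHD1, which degrades deoxynucleotides, were set beside RRM2. RRM2B read 9.68, 9.73 and 9.69 in LNCaP-abl with TRIM24 siRNA, against 9.59, 9.67 and 9.76 with control siRNA, and these overlapped. Its change was 0.03 ± 0.09 there (limma, adjusted p = 0.827), -0.05 ± 0.09 in LNCaP with DHT (0.718) and 0.33 ± 0.09 in LNCaP with vehicle (0.00977), a rise that was not called without LNCaP control vehicle replicate 3 (0.22, 0.0587) or with the 3′ to 5′ term (0.31, 0.115). SAMHD1 had -0.11 ± 0.06 in LNCaP-abl (0.111), where it was called lower on its most variable probe set (-0.20, 0.0054) and with the 3′ to 5′ term (-0.18, 0.0488), and -0.05 ± 0.06 in LNCaP with vehicle (0.489), and fell by 0.18 ± 0.06 in LNCaP with DHT (0.0147), a call lost without LNCaP control DHT replicate 3 (-0.13, 0.0844). In LNCaP-abl against LNCaP with vehicle, RRM2B was higher by 0.42 ± 0.09 (0.000952) and SAMHD1 lower, at -0.51 ± 0.06 (5.64e-07).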

How the data were processed

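Expression values of 18 arrays were taken on the log2 scale on which the authors deposited them, per the submitters' processing notes after RMA (version not given in the sources used here). RMA usually includes a quantile step, which can remove a change shared by most genes, and it compresses low values; the deposited arrays did not share one distribution exactly, with medians of 5.83 to 5.93. Of 54675 probe sets, 41097 had 1 symbol in the platform annotation, 1801 several and 11777 none; symbols were updated through the RefSeq gene table for 41043, and probe sets with several or none named no gene. A gene was read on the probe set with the greatest mean of the 18 arrays and tested where 3 arrays or more reached 5.88, the table's median, as 13607 genes did. limma 3.58.1 in R 4.3.3 fitted the means of the 6 groups to all arrays, leaving 12 residual degrees of freedom, and p-values were adjusted by Benjamini-Hochberg over all genes tested in each of 11 comparisons. All tests were two-sided. An exact permutation test of 3 arrays against 3 cannot give a p under 0.1, so none was used. The 3 arrays of a group limit the precision. Groups were taken from the titles, no 2 arrays held identical values, and replicate numbers were not used to pair arrays. The fit was run on simulated data with independent noise on each array. Such data cannot show whether the 3 arrays of a group come from separate cultures.

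The members and gene lists were chosen with earlier results of these data known. All 7 members were named, and also TRIM24, RRM2B and SAMHD1, up to 3 called pathway genes with the smallest adjusted p in each knockdown comparison and in LNCaP-abl against LNCaP, and the 3 genes of highest correlation with each member. Alternatives were other low-value filters, other uses of a gene's probe sets, centring, quantile normalization, only the groups compared, a trended robust variance, array weights, other thresholds, a replicate block, a term for the 3′ to 5′ ratio of GAPDH and ACTB, and the omission of each array.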

Additional observations from a re-analysis of the deposited data

Results flagged for a closer look

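The effect of TRIM24 siRNA differed between groups, by the interaction term of the limma fit, in 8 results. Between LNCaP-abl and LNCaP with vehicle, the log2 change with TRIM24 siRNA differed by -1.73 for RRM2 (adjusted p = 4.88e-09), -1.10 for TK1 (3.81e-07), -0.80 for TYMS (2.33e-07), -0.65 for DCK (0.000182), -0.52 for RRM1 (0.000126), -0.39 for DTYMK (1.52e-05) and -0.28 for DUT (0.00288). Between DHT and vehicle in LNCaP it differed by -0.50 for RRM2 (0.0017), with -0.26 (0.0808) on that gene's more variable probe set. Groups of 3 arrays were not tested for single outlying arrays.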

How the results depend on the processing

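The counts of called members for knockdown in LNCaP with vehicle (main 4, 3 to 5 over 14 other settings), in LNCaP with DHT (5, 4 to 6) and in LNCaP-abl (7 under all), for LNCaP-abl against LNCaP with control siRNA (7, 6 to 7; with DHT 6, 5 to 7), for knocked-down LNCaP-abl against control LNCaP (6, 5 to 7) and for the interaction with cell line (7, 6 to 7) stayed within 1.5 times. For the interaction with DHT, 1 as reported, the count was 3 with the stricter filter, 0 with the most variable probe set, 2 after quantile normalization (1 in each direction), 2 with only the groups compared, 3 with trended robust variances, 4 with array weights and 2 with the 3′ to 5′ covariate. For DHT with TRIM24 siRNA, 2 as reported, it was 1 with the most variable probe set, 4 with only the groups compared, 5 with array weights and 1 with a log2 change of at least 0.25. For DHT with control siRNA, 3 as reported, it was 5 after centring and 5 with array weights. LNCaP-abl against LNCaP with TRIM24 siRNA, 5 as reported, had 3 with a log2 change of at least 0.25. The causes were not tested, beyond the stricter limits themselves.

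Leaving out 1 array at a time gave 4 to 4 and 4 to 5 members for knockdown in LNCaP with vehicle and with DHT, 7 to 7 in LNCaP-abl, 2 to 5 and 2 to 3 for DHT with control and TRIM24 siRNA, 7 to 7, 5 to 7 and 4 to 5 for LNCaP-abl against LNCaP with vehicle, with DHT and with TRIM24 siRNA, 6 to 6 for knocked-down LNCaP-abl against control LNCaP, and 1 to 3 and 7 to 7 for the interaction with DHT and that with cell line. Signs turned for some values, and not only for values that were not called. DUT for DHT with TRIM24 siRNA (0.19) and RRM1 for LNCaP-abl against LNCaP with TRIM24 siRNA (0.15) were called as reported. With the mean of probe sets DUT had -0.019 in the interaction with DHT and SAMHD1 0.021 in knockdown with vehicle. With the most variable probe set DUT had -0.23 in that interaction and -0.067 for DHT with TRIM24 siRNA, RRM1 had -0.011 for DHT with control siRNA and -0.021 for LNCaP-abl against LNCaP with TRIM24 siRNA, and SAMHD1 had 0.11 in knockdown with vehicle. Centring gave DCK -0.029 for LNCaP-abl against LNCaP with TRIM24 siRNA and RRM2B -0.011 in knockdown in LNCaP-abl, and array weights gave DCK -0.00087 in knockdown with vehicle. Without 1 array DCK ranged from -0.034 to 0.13 in knockdown with vehicle and from -0.012 to 0.15 in knocked-down LNCaP-abl against control LNCaP, and RRM2B from -0.13 to 0.058 and from -0.013 to 0.071 in knockdown in LNCaP with DHT and in LNCaP-abl. Of 770 values of members under other settings 716 kept direction and call, 10 kept direction but lost the call, 37 kept direction and gained it, and 7 turned. Of 1386 with an array left out the numbers were 1361, 9, 14 and 2. Values that turned were counted only as such, whether or not a call was also lost. Arrays of one replicate number did not deviate together in all 3 pairs of any comparison (correlations -0.30 to 0.20), and the numbers were not used to pair arrays. With 3 arrays per group this check cannot exclude a culture or batch shared by a replicate number. The replicate block left the counts at 4, 5 and 7 for the 3 knockdowns and at 3 and 2 for DHT. It left them at 7, 6, 5 and 6 for the line comparisons and at 1 and 7 for the interactions, and changed no member's call.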

Other observations

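Among the other nucleotide genes that differed between the lines with control siRNA, SHMT2, the mitochondrial serine hydroxymethyltransferase of the folate cycle, read 10.31, 10.27 and 10.25 in LNCaP-abl, against 11.23, 11.23 and 11.21 in LNCaP with vehicle, a difference of -0.95 ± 0.03 (limma, adjusted p = 7.62e-14). CMPK2, a mitochondrial nucleotide kinase induced by interferon, read 8.27, 8.43 and 8.35 in LNCaP-abl and 9.54, 9.61 and 9.53 in LNCaP, a difference of -1.21 ± 0.06 (2.8e-11). PFAS, an enzyme of purine synthesis, was higher in LNCaP-abl, with 9.15, 9.26 and 9.05 in LNCaP-abl and 7.86, 8.00 and 7.90 in LNCaP, a difference of 1.23 ± 0.05 (6.49e-12). The arrays of the lines did not overlap for any of the 3 genes. Of the 36 other pathway genes tested, 8 were called higher and 18 lower in LNCaP-abl, with a median of -0.11, where 29.1% of all genes were called higher and 34.6% lower, with a median of -0.02.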
